A study of Homo sapiens with 12 samples.

Results

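Human chromosome 19 carries most of the genome's large zinc-finger gene clusters, and 218 of its numbered ZNF genes are described here. The deposited expression table lists 63129 Ensembl gene entries, of which 266 lie on chromosome 19 and have a symbol made of ZNF, digits and at most 1 further letter. The 218 members are those with a mean of at least 0.5 FPKM over the 6 KARPAS-422 libraries, DMSO and CPI-169 together. FPKM is the number of fragments scaled to transcript length and to the mapped fragments of the library, a level corrected for gene length and library size. The members were thus chosen by their FPKM in KARPAS-422, and their height in that line is not a finding. The nearest entries below the minimum were ZNF829 at 0.461 FPKM and ZNF77 at 0.481 FPKM, and the nearest above it were ZNF233 at 0.559 FPKM and ZNF154 at 0.617 FPKM. The other 48 entries fell below the minimum and are used only where all 266 are counted. Of the members, 211 are protein-coding in the GENCODE annotation, 5 have another class and 2 have no entry.

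The study asked how blocking EZH2, the histone methyltransferase of the Polycomb repressors, alters gene expression in lymphoma. KARPAS-422, Pfeiffer and RL are established human lines of germinal-centre diffuse large B-cell lymphoma, and each is known to carry an activating change in the EZH2 catalytic domain, the controls included. KARPAS-422 cells received 1.5 µM CPI-169 (3 libraries) or 0.1% DMSO (3 libraries), Pfeiffer cells received 1.5 µM GSK343 (2 libraries) or 0.1% DMSO (2 libraries), and RL cells received 0.1% DMSO only (2 libraries). CPI-169 and GSK343 are small-molecule inhibitors of EZH2, and RNA was taken after 4 days. Each compound was used in 1 line, so compound and line cannot be told apart. Separate cultures are not stated for the replicates. The p-values therefore cover the variation among libraries alone, and that variation may be technical.

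Most ZNF genes on chromosome 19 encode KRAB zinc-finger proteins. Such a protein binds DNA through an array of zinc fingers, each finger contacting a few bases, while its KRAB domain recruits the corepressor TRIM28 (KAP1). TRIM28 in turn brings in the histone methyltransferase SETDB1 and other repressors, and many of the bound sites are transposable elements. The genes arose by repeated tandem duplication, so neighbours are close relatives in sequence. Reads shared between such relatives could have been split or assigned to either gene, and the strand handling of the counting is not given in the sources used here. Of the 218 members, 157 overlap another listed entry and 93 overlap one with a mean of at least 1 FPKM, so their values are less certain.

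Chained so that neighbouring starts lie at most 1 Mb apart, the 266 genes formed 17 clusters. The 7 clusters with 10 or more members held 201 of the 218. Positions are hg19. From the short-arm end they were ZNF557 to ZNF846 (chr19:7069455-9903856, 14 members), ZNF653 to ZNF791 (chr19:11594242-12750912, 28 members) and ZNF101 to ZNF254 (chr19:19779605-24312654, 29 members), the last next to the centromere. On the long arm followed ZNF565 to ZNF573 (chr19:36673188-38307940, 25 members), ZNF575 to ZNF296 (chr19:44029649-45579846, 16 members), ZNF175 to ZNF331 (chr19:52074551-54083523, 36 members) and ZNF628 to ZNF446 (chr19:55987699-58992597, 53 members).

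Members of a cluster share stretches of promoter sequence. The 9-letter motif TCCAATCAG, which contains the CCAAT box bound by the factor NF-Y, was found by comparing these promoters. Searched in the RefSeq windows (GRCh38.p14, 250 bases before to 50 after a gene's start), it occurred in 298 of 35116 windows in all (0.849%). It occurred in 24 of 25 windows (96%) of the ZNF101 to ZNF254 cluster and in 19 of 26 (73.1%) of the ZNF653 to ZNF791 cluster. None of the windows of the other 5 large clusters held it. ACTTCCGG was in 25 of 53 windows (47.2%) of the ZNF628 to ZNF446 cluster against 4.14% of all windows. It was also in 5 of 16 (31.2%) of the ZNF575 to ZNF296 cluster. The ZNF565 to ZNF573 and ZNF175 to ZNF331 clusters held it in 13.2% and 10.3% of windows. Of 238 windows of ZNF genes outside chromosome 19, 14.7% held ACTTCCGG, 5.46% TCCAATCAG and 2.94% ACTACATTT. ACTACATTT was in 10 of 38 windows (26.3%) of the ZNF565 to ZNF573 cluster and in 4 of 16 (25%) of the ZNF575 to ZNF296 cluster, against 0.618% of all. These motifs do not overlap each other in their letters, and each was searched on both strands. Windows were found for 190 members. A match is a run of letters and not evidence of binding. The sequences shown are the 150 bases before the start, 5′ to 3′ on the gene's strand, from RefSeq on GRCh38.p14, with the motifs in capitals. The first 7 are members that moved most with CPI-169 or that show the shared letters within and between the first clusters. The last 2 carry the motifs of the long-arm clusters. They are ZNF90 (chr19:20077850-20077999, plus strand), ZNF93 (chr19:19900796-19900945, plus strand), ZNF714 (chr19:21082053-21082202, plus strand), ZNF85 (chr19:20923101-20923250, plus strand), ZNF430 (chr19:21020507-21020656, plus strand), ZNF563 (chr19:12333634-12333783, minus strand), ZNF101 (chr19:19668689-19668838, plus strand), ZNF274 (chr19:58182911-58183060, plus strand) and ZNF790 (chr19:36838388-36838537, minus strand).
ZNF90: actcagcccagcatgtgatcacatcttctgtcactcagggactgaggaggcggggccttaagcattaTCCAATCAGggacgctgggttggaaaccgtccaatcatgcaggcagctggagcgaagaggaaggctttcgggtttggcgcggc
ZNF93: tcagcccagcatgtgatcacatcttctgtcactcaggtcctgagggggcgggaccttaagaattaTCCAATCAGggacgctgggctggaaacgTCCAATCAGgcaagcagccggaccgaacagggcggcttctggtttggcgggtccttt
ZNF714: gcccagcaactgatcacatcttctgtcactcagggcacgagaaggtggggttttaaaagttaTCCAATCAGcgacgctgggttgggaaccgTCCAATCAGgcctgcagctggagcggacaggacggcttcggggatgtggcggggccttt
ZNF85: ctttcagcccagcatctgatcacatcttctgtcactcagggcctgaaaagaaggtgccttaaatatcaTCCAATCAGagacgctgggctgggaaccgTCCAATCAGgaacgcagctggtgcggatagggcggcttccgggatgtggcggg
ZNF430: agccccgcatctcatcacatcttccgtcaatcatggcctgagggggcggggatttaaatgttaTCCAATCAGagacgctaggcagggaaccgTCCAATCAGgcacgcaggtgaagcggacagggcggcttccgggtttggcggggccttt
ZNF563: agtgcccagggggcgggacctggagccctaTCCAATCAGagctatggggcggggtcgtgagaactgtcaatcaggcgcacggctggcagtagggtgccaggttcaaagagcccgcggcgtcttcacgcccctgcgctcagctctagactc
ZNF101: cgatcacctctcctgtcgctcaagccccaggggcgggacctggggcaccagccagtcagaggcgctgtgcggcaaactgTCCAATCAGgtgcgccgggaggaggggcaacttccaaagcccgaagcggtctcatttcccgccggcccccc
ZNF274: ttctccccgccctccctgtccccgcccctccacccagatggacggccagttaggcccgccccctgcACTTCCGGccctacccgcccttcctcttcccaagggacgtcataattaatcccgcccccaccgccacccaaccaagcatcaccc
ZNF790: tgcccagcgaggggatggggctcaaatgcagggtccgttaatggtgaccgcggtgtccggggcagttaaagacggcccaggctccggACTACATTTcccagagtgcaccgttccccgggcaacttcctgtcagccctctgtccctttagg
In ZNF93, ZNF714, ZNF85 and ZNF430 the motif stands at 2 places. In ZNF90, ZNF101 and in ZNF563, from the neighbouring cluster, it stands at 1 place.

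All 12 libraries held B-cell RNA: the 7 listed B-cell markers were each at 1 FPKM or more in every library, summing to 1529–2665 FPKM, and none of 5 myeloid markers reached 1 FPKM in any. The FPKM sums were 371965–630387 and 14018–16391 genes reached 1 FPKM. The count of such genes was 14259–14306 in the KARPAS-422 DMSO libraries and 14959–14977 with CPI-169. Marker sums also moved with treatment. In KARPAS-422 the B-cell sum was 1898–2090 FPKM with DMSO and 1529–1659 FPKM with CPI-169, and the sum of the 5 germinal-centre markers was 265–279 FPKM and 390–399 FPKM. The 7 T and NK cell markers summed to 35.5–37.2 FPKM with DMSO and 53.3–60.0 FPKM with CPI-169 in KARPAS-422, with 1 to 3 of them at 1 FPKM or more. In Pfeiffer that list summed to 411–413 FPKM with DMSO and 298–396 FPKM with GSK343, with only 1 of the 7 at 1 FPKM or more in each library. The 6 epithelial and stromal markers summed to 141–142 FPKM and 58.2–80.8 FPKM there, most of it EPCAM (means of 134.6 and 58.2 FPKM). Of the others, KRT18 rose from 2.99 to 4.66 FPKM (adjusted p = 0.0105, limma) and COL1A1 from 1.14 to 3.11 FPKM (adjusted p = 0.00564, limma). The germinal-centre markers summed to 120–123 FPKM in the Pfeiffer DMSO libraries, 123 FPKM in GSK343 replicate 1 and 294 FPKM in GSK343 replicate 2. Over the members, the 2 GSK343 libraries correlated at r = 0.954, against 0.988 for the Pfeiffer DMSO pair and 0.987–0.994 within the KARPAS-422 groups. The part of these shifts in the results was not tested.

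With CPI-169 most members fell in KARPAS-422, in 6 of the 7 large clusters. With DMSO their median level was 8.39, 7.95 and 8.21 FPKM by library, and with CPI-169 it was 4.93, 4.73 and 5.09 FPKM. Their share of the summed FPKM was 0.654%, 0.584% and 0.611% with DMSO and 0.383%, 0.413% and 0.389% with CPI-169. Both quantities were lower in every CPI-169 library than in any DMSO library. In bulk RNA, less RNA per cell and fewer cells carrying it cannot be told apart. The test was limma with Benjamini-Hochberg adjustment over 18731 genes on log2(FPKM + 1), a scale that understates the change of low genes. Of 216 members tested, 156 were lower at an adjusted p under 0.05, against 27.3% of all genes tested, and 16 were higher, against 26.9% of all (54.2% of all genes passed in either direction). As shares of the members these are 72.2% and 7.41%. The median log2 fold change was -0.59 for the members and 0.01 for all genes tested. In 37 members the fall was at least 2-fold on this scale, and in no member was a rise that large. All 3 CPI-169 libraries lay below all 3 DMSO libraries for 165 of the 218 (31.8% of all genes tested) and above for 20 (33.2% of all genes tested). The median change of the members was -0.56, -0.60 and -0.59 in the 3 CPI-169 libraries, each set against the DMSO mean. ZNF878 and 1 of the ZNF763 entries (ENSG00000267179) were under the 1 FPKM filter and were not tested. The other ZNF763 entry (ENSG00000197054) was lower, at -0.42.

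**Figure D1:**
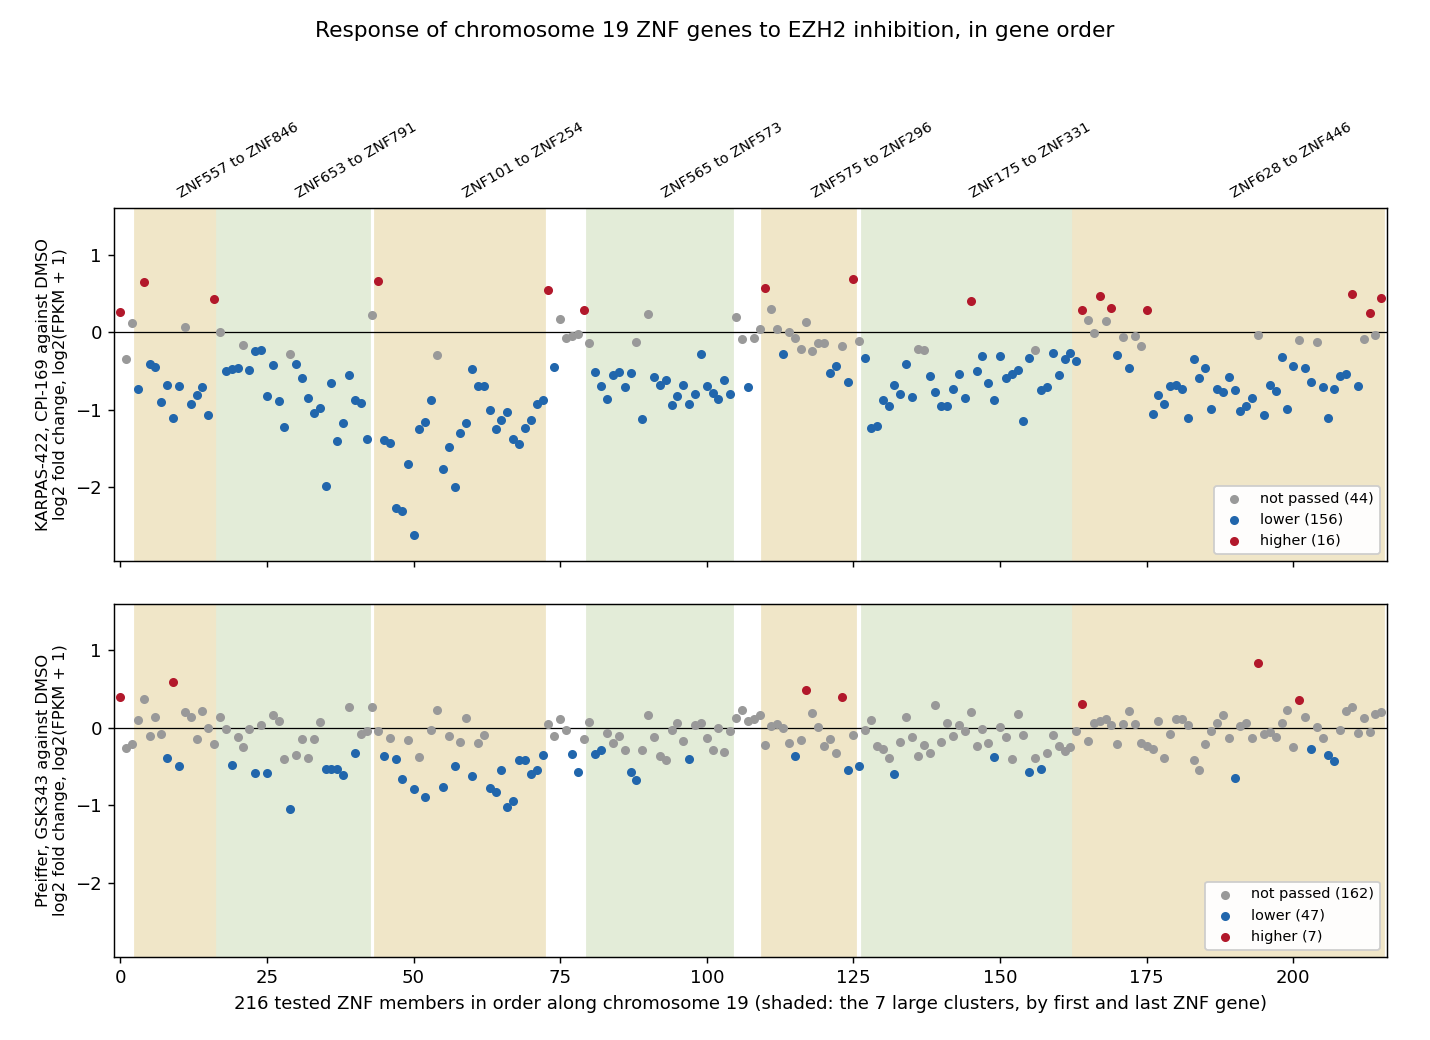
Log2 fold change of each tested member, on the log2(FPKM + 1) scale, in gene order along chromosome 19, for CPI-169 in KARPAS-422 (upper) and GSK343 in Pfeiffer (lower). Colours mark members higher or lower at an adjusted p under 0.05 and members that did not pass; shading marks the 7 large clusters, and the ZNF101 to ZNF254 cluster holds an unbroken stretch of 18 lower members in the upper panel and of 10 in the lower.

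The ZNF101 to ZNF254 cluster beside the centromere had the lowest median change of the 7. The DMSO libraries held its median member at 15.7, 16.2 and 16.3 FPKM, and with CPI-169 it stood at 6.59, 6.99 and 7.32 FPKM. Of its 29 members, 27 were lower, 20 of them by at least 2-fold, and 1 was higher; the median log2 fold change was -1.24. Read along the chromosome, 9 neighbouring members from ZNF14 to ZNF737 were all lower, and then 18 from ZNF85 to ZNF254. Between them stood only ZNF66, at -0.29 with an adjusted p of 0.0895 (limma). In the second of these stretches the log2 fold changes ran from -2.00 to -0.48, with a median of -1.15. Of the 8 members with the lowest fold changes among those that passed the test without overlap, 7 lay here, and the eighth was ZNF563.

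ZNF90 fell furthest. With DMSO it read 26.5, 22.9 and 24.5 FPKM, and with CPI-169 3.24, 3.38 and 2.91 FPKM, a 7.76-fold lower mean. The groups were far apart, and the log2 fold change was -2.62 (SE 0.10, adjusted p = 2.2e-08, limma). ZNF90 (chr19:20188803-20237885, hg19) overlaps 3 entries at 1 FPKM or more, so part of its reads may belong to them. ZNF93, known for silencing young LINE-1 retrotransposons, overlaps no such entry. It read 30.5, 32.5 and 34.6 FPKM with DMSO and 5.94, 5.65 and 5.75 FPKM with CPI-169, 5.63-fold lower (chr19:20011722-20046384; -2.30, SE 0.08, adjusted p = 1.23e-08, limma). The treated libraries lay close together, and the lowest DMSO library was far above them all. ZNF253 read 43.6, 44.96 and 47.1 FPKM with DMSO and 8.64, 8.60 and 8.70 FPKM with CPI-169 (chr19:19976695-20005483; -2.26, adjusted p = 3.67e-08, limma). ZNF714 read 37.5, 38.1 and 38.1 FPKM with DMSO and 8.82, 8.40 and 9.02 FPKM with CPI-169 (chr19:21264965-21308073; -2.00, adjusted p = 1.29e-08, limma). The means of these genes were 5.23-fold and 4.33-fold lower, again without overlap.

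ZNF85 read 34.9, 36.3 and 38.5 FPKM with DMSO and 9.84, 10.4 and 9.94 FPKM with CPI-169 (chr19:21106028-21133503; -1.76, adjusted p = 4.47e-08, limma). ZNF682 read 12.6, 13.03 and 14.9 FPKM and then 3.89, 3.60 and 2.93 FPKM (-1.70, adjusted p = 3.1e-07, limma). ZNF430 read 33.0, 32.3 and 35 FPKM and then 11.5, 10.7 and 11.7 FPKM (-1.48, adjusted p = 8.33e-08, limma). For each of these 3 genes every treated library was below every DMSO library. ZNF91, a repressor of SVA retrotransposons picked out after its values were seen, read 28.8, 29.99 and 30.6 FPKM with DMSO. With CPI-169 it read 10.6, 10.3 and 10.1 FPKM (-1.44, adjusted p = 6.67e-07, limma). ZNF91 and ZNF93 thus both fell. The exception of the cluster was ZNF101, its first gene, which rose from 8.34, 10.0 and 8.67 FPKM to 15.2, 14.9 and 14.2 FPKM (0.66, adjusted p = 0.000443, limma).

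**Figure D2:**
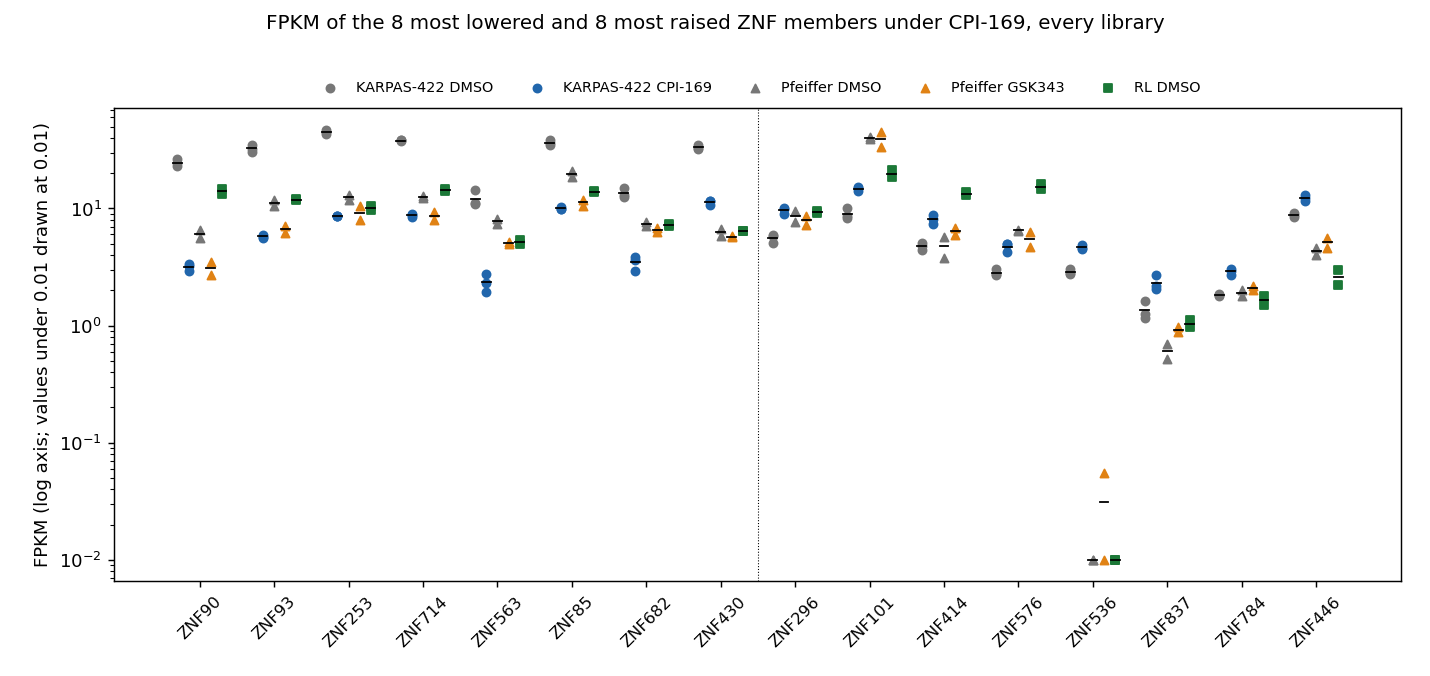
FPKM on a log axis of the 8 members lowered most and the 8 raised most by CPI-169 among the named genes, 1 point for each of the 12 libraries, with colour and marker for line and treatment. In the lowered genes the CPI-169 points lie apart from and under the DMSO points, and the gap in ZNF90 is the widest at 7.76-fold.

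In the ZNF653 to ZNF791 cluster 23 of 26 tested members were lower and none higher, with a median of -0.62. The median member read 5.05, 5.09 and 5.52 FPKM with DMSO and 2.76, 2.76 and 2.55 FPKM with CPI-169. The last 13 tested members, from ZNF788 to ZNF791, were lower without a break, with a median of -0.91. ZNF563 fell most here, from 11.1, 10.9 and 14.5 FPKM to 2.76, 2.32 and 1.93 FPKM, 5.2-fold in mean (chr19:12428291-12444534; -1.98, adjusted p = 4.74e-07, limma). Its relative ZNF44, an example picked after its values were seen, went from 13.1, 13.1 and 14.7 FPKM to 5.87, 7.01 and 6.50 FPKM (-0.97, adjusted p = 3.73e-06, limma). ZNF177 in the ZNF557 to ZNF846 cluster has 2 overlapping entries in the table, at log2 fold changes of -1.10 and -0.69. In that cluster 11 of 14 members were lower and 2 higher, with a median of -0.70.

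On the long arm 3 of the 4 clusters had most members lower, at medians nearer to 0 than that of the centromeric cluster. In the ZNF565 to ZNF573 cluster 22 of 25 members were lower and none higher (median -0.69), and its median level went from 6.07, 5.67 and 6.24 FPKM to 3.19, 3.30 and 3.27 FPKM. The highest-expressed member, ZNF146, which has zinc fingers but no KRAB domain, lies here. ZNF146 read 68.6, 68.8 and 75.2 FPKM with DMSO and 49.7, 48.6 and 50.1 FPKM with CPI-169 (-0.51, adjusted p = 6.58e-05, limma). In the ZNF175 to ZNF331 cluster 32 of 36 were lower and 1, ZNF83, was higher (median -0.58). Its median level went from 11.4, 10.8 and 11.4 FPKM to 7.76, 7.83 and 7.59 FPKM. ZNF28 and ZNF616, examples picked after their values were seen, changed by -0.65 and -0.83 (adjusted p = 5.13e-05 and 3.58e-05, limma). The ZNF575 to ZNF296 cluster differed from the others in its counts, with 4 of 16 lower, 2 higher and a median of -0.14. Its median level was 3.98, 3.79 and 3.82 FPKM with DMSO and 3.25, 3.51 and 3.31 FPKM with CPI-169.

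The 53 members of the ZNF628 to ZNF446 cluster at the chromosome's end did not move as one block. Over the whole cluster 35 were lower and 7 higher, with a median of -0.54. With boundaries drawn after the values were seen, the 34 members from ZNF264 to ZNF497 held 31 lower and none higher, at a median of -0.72. The 13 members before them, ZNF628 to ZNF71, held 3 lower and 4 higher at a median of -0.01, and the 6 after them, ZNF837 to ZNF446, held 1 lower and 3 higher at a median of 0.10. ZNF264, picked after its values were seen, opens the long stretch of 18 lower neighbours. It read 20.6, 17.96 and 18.7 FPKM with DMSO and 9.03, 8.34 and 8.53 FPKM with CPI-169 (-1.06, adjusted p = 9.71e-06, limma). ZNF274, which binds the 3′ ends of zinc-finger genes and recruits SETDB1 there, lies in the middle block. It was chosen after its values were seen, and read 13.7, 15.7 and 15.7 FPKM with DMSO and 6.97, 6.40 and 6.02 FPKM with CPI-169 (-1.10, adjusted p = 4.74e-06, limma). ZNF544, among the 5 highest-expressed members, fell from 41.3, 41.3 and 42.0 FPKM to 23.04, 24.6 and 26.3 FPKM (-0.73, adjusted p = 3.27e-05, limma).

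**Figure D3:**
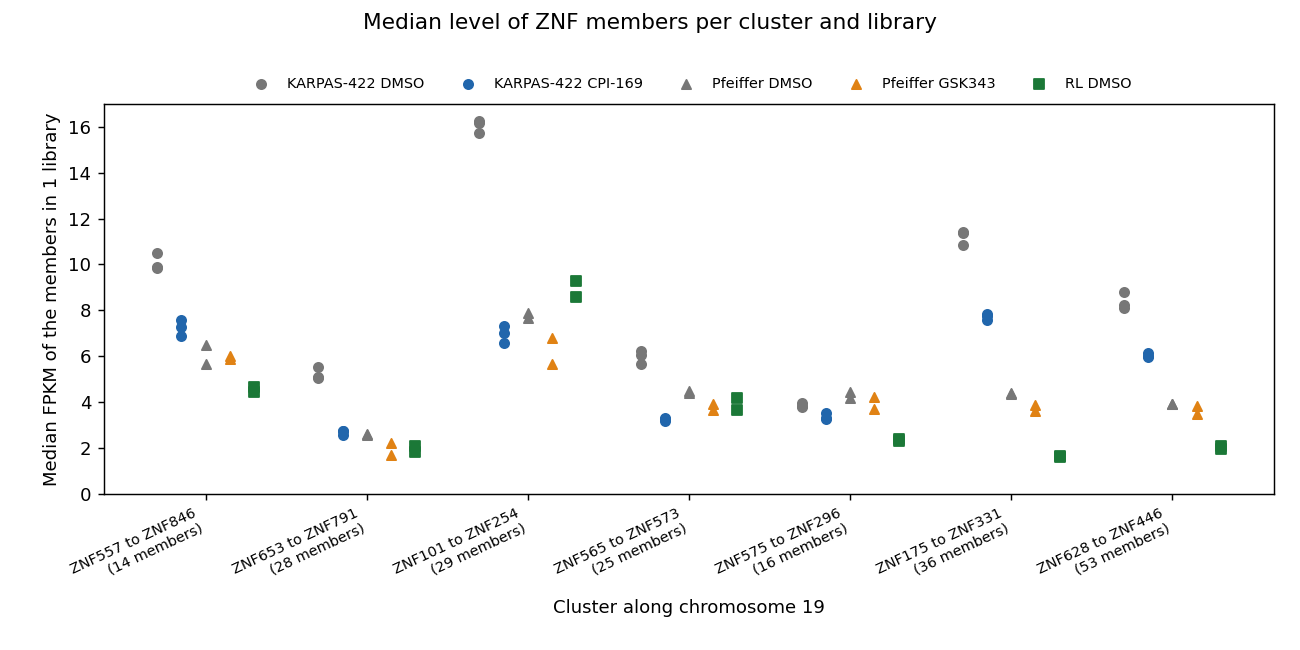
Median FPKM of the members of each of the 7 large clusters, 1 point per library, coloured by line and treatment. The ZNF101 to ZNF254 cluster is the highest in the KARPAS-422 DMSO libraries at 15.7–16.3 FPKM and falls to 6.59–7.32 FPKM with CPI-169, and the ZNF175 to ZNF331 cluster is at 1.59–1.65 FPKM in RL.

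The 17 members outside the large clusters had a median of -0.02, with 2 lower (ZNF507 at -0.45 and ZNF780A at -0.70) and 3 higher (ZNF554, ZNF536 and ZNF792). None of the 3 around ZNF554, and none of the 5 that end with ZNF792, was lower.

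The 16 members that rose with CPI-169 were spread over the clusters and rose by small amounts. They were ZNF554, ZNF414, ZNF846, ZNF101, ZNF536, ZNF792, ZNF576, ZNF296, ZNF83, ZNF579, ZNF784, ZNF581, ZNF71, ZNF837, ZNF324B and ZNF446. ZNF296 had the highest fold change, from 5.98, 5.80 and 5.10 FPKM to 8.98, 10.1 and 9.94 FPKM (0.69, SE 0.10, adjusted p = 0.000191, limma), a 1.72-fold higher mean. ZNF414 read 4.77, 5.12 and 4.46 FPKM with DMSO and 7.34, 8.13 and 8.85 FPKM with CPI-169 (0.65, adjusted p = 0.000995, limma). ZNF576 read 2.77, 2.69 and 3.06 FPKM and then 4.97, 4.25 and 4.94 FPKM (0.57, adjusted p = 0.000624, limma). ZNF536, a repressor studied in neuronal differentiation, read 2.81, 3.05 and 2.77 FPKM and then 4.88, 4.58 and 4.52 FPKM (0.54, adjusted p = 5.89e-05, limma). In all 4 the libraries did not overlap, and ZNF536 was listed at 0 in both Pfeiffer DMSO libraries. ZNF581 and ZNF428, also among the 5 highest-expressed members, changed by 0.31 (adjusted p = 0.0422) and 0.29 (adjusted p = 0.103, both limma). ZNF83, the only higher gene of its cluster, read 36.6, 36.3 and 37.8 FPKM with DMSO and 48.8, 52.0 and 47.1 FPKM with CPI-169 (0.41, adjusted p = 0.00712, limma). Several of the 16 stood at the edge of a large cluster by member order. ZNF101 is the first of 29, ZNF576 the first and ZNF296 the last of 16, ZNF846 the last of 14, and ZNF446 closes the last cluster. The other first or last members of the large clusters were lower or did not pass. ZNF557, ZNF791, ZNF254, ZNF573, ZNF175, ZNF331 and ZNF628 were lower, and ZNF653 and ZNF565 did not pass.

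Other genes give the scale for these counts, with no test of the difference between sets. Of 219 tested ZNF genes on other chromosomes, 95 were lower and 50 higher with CPI-169, at a median of -0.15. Of 1050 tested chromosome 19 genes that are not numbered ZNF genes, 307 were lower and 275 higher, at a median of 0.00. Between the members inside the 7 clusters, 208 other genes of any class were tested, and 69 were lower and 33 higher at a median of -0.08. Of these, 75 protein-coding genes without a zinc-finger symbol gave 24 lower and 19 higher at a median of 0.02. In the ZNF565 to ZNF573 cluster alone, 10 of 20 other genes were lower and 1 higher, at a median of -0.42. Chromosome 19 zinc-finger genes of the ZFP, ZSCAN and ZIM families, fixed as a list of 16, gave 9 tested genes, of which 3 were lower and none higher.

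The genes through which KRAB proteins act moved less uniformly. Of 31 tested from a list of 32, 14 were lower and 6 higher with CPI-169, at a median of -0.16. TRIM28, the corepressor, read 72.1 ± 8.87 FPKM with DMSO and 84.3 ± 3.18 FPKM with CPI-169 (SD, n = 3 each), a log2 difference of 0.23 that did not pass (adjusted p = 0.106, limma). SETDB1 fell from 28.6 ± 1.48 to 21.0 ± 1.11 FPKM (SD, n = 3 each; -0.43, SE 0.11, adjusted p = 0.00627, limma). ATF7IP, the partner that stabilises SETDB1, fell from a mean of 32.2 to 12.1 FPKM (-1.34, adjusted p = 6.17e-07, limma). PIAS1, a SUMO ligase, fell from 42.5 to 23.6 FPKM (-0.82, adjusted p = 5.02e-06, limma). RBBP4, a histone-binding subunit shared by several chromatin complexes including EZH2's own, rose from 43.7 to 79.0 FPKM (0.84, adjusted p = 1.79e-06, limma).

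In Pfeiffer, GSK343 lowered fewer members and by less. The median member was at 4.33 and 4.24 FPKM with DMSO and 3.71 and 3.64 FPKM with GSK343. Of the 216 tested, 47 were lower, against 17.5% of all genes tested, and 7 were higher, against 12% of all (29.5% in either direction). The lower members make up 21.8% of those tested, close to the share over all genes. The median log2 fold change was -0.12 for the members and -0.03 for all genes tested. Both GSK343 libraries lay below both DMSO libraries for 100 of the 218 (34.0% of all genes tested) and above for 34 (23.9% of all). These calls rest on a spread estimated over all 12 libraries. With the 4 Pfeiffer libraries fitted alone, limma called 0 members and 0 of 18731 genes at an adjusted p under 0.05. At an unadjusted p under 0.05, 32 of 216 members were lower and 5 higher in that fit. Of all 18731 genes, 2883 were lower and 1751 higher at the same unadjusted p, so the members did not stand out from the whole. With 1 Pfeiffer library left out, its group held only 1 library, and the counts of called members and of all called genes both moved widely. The members' median then stayed between -0.13 and -0.10. The median of all genes was -0.04 without Pfeiffer DMSO replicate 1 and 0.00 without GSK343 replicate 1. It was -0.08 without GSK343 replicate 2, whose germinal-centre markers stood apart.

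The lower members in Pfeiffer were most frequent in the ZNF101 to ZNF254 cluster. There 18 of 29 were lower and none higher, with a median of -0.41. Other genes inside the bounds of this cluster fell as well: of 35 tested, 14 were lower and 1 higher, at a median of -0.26. The median member of the cluster was at 7.90 and 7.66 FPKM with DMSO and 5.68 and 6.82 FPKM with GSK343. All 10 neighbours at the centromere end, ZNF100 to ZNF254, were lower, with log2 fold changes from -1.02 to -0.36 and a median of -0.57. It was the only run of 5 or more lower neighbours on the chromosome. Among the other 19 members of the cluster, 8 were lower and the median was -0.19, with the boundary again drawn after the values were seen. The same 19 and 10 members changed by medians of -1.30 and -1.13 with CPI-169 in KARPAS-422. With Pfeiffer fitted alone, 12 of the 29 were lower at an unadjusted p under 0.05 and none at an adjusted one, and leaving out 1 library at a time gave 12 to 19 lower. In the other large clusters the counts of lower members were 9 of 26 (ZNF653 to ZNF791), 5 of 25 (ZNF565 to ZNF573), 4 of 36 (ZNF175 to ZNF331), 4 of 53 (ZNF628 to ZNF446), 2 of 16 and 2 of 14.

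ZNF788, from the ZNF653 to ZNF791 cluster, had the lowest fold change: its entry ENSG00000188474 read 5.05 and 4.70 FPKM with DMSO and 2.23 and 1.48 FPKM with GSK343 (-1.05, adjusted p = 0.000975, limma). It overlaps other ZNF entries, and the other entry of that symbol, ENSG00000214189, changed by -0.35 and did not pass. ZNF730 read 3.83 and 4.55 FPKM and then 1.76 and 1.36 FPKM (-1.02, adjusted p = 0.00025, limma). ZNF43, which is expressed in lymphoid cells, read 15.1 and 15.4 FPKM and then 7.61 and 8.69 FPKM (-0.83, adjusted p = 0.000283, limma). In all 3 genes both treated libraries were below both controls. ZNF724P changed by -0.95 (adjusted p = 0.000935), ZNF826P by -0.89 (adjusted p = 0.0035; -0.55 without GSK343 replicate 1) and ZNF90 by -0.79 (adjusted p = 0.000813, all limma). ZNF90 read 6.52 and 5.63 FPKM with DMSO and 2.71 and 3.47 FPKM with GSK343. ZNF93 went from 11.8 and 10.5 FPKM to 6.14 and 7.13 FPKM (-0.67, adjusted p = 0.000617, limma), and ZNF91 from 23.96 and 24.97 FPKM to 21.1 and 15.6 FPKM (-0.41, adjusted p = 0.021, limma). With Pfeiffer fitted alone, the calls of the 6 lowest and of the 4 higher genes named by the same rule (ZNF154, ZNF224, ZNF587 and ZNF579) were all lost.

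ZNF154, whose promoter is often methylated in tumours, rose most with GSK343, from 2.07 and 1.90 FPKM to 3.83 and 4.86 FPKM, 2.19-fold in mean (0.83, SE 0.12, adjusted p = 0.000758, limma). ZNF224, a KRAB repressor, read 4.53 and 5.13 FPKM and then 6.30 and 8.20 FPKM (0.49, adjusted p = 0.00729, limma), a call lost without Pfeiffer DMSO replicate 1, and a change of 0.33 without GSK343 replicate 2. ZNF587 at 0.35 (adjusted p = 0.0337) and ZNF579 at 0.31 (adjusted p = 0.0494, both limma) lay near the threshold and lost the call under several alternatives, with ZNF587 at 0.22 without GSK343 replicate 2. The other 3 higher members were under the 2 FPKM mean that the naming rule asks for: ZNF177 (ENSG00000270011) at 0.59, ZNF233 at 0.40 and ZNF554 at 0.40. ZNF473, which acts in histone pre-mRNA processing and was chosen after its values were seen, fell from 5.15 and 5.02 FPKM to 3.32 and 3.32 FPKM with GSK343 (-0.49, adjusted p = 0.00189, limma). Its change with CPI-169 was -0.11 (adjusted p = 0.224, limma). In the corepressor list GSK343 gave 13 lower and 0 higher of 31 (median -0.23). The smallest adjusted p in that list belonged to the DNA methylation genes UHRF1 (13.3 to 3.45 FPKM; -1.68, adjusted p = 9.8e-07, limma) and DNMT1 (139 to 64.2 FPKM; -1.10, adjusted p = 3.64e-05, limma) and to CBX1, a heterochromatin protein (66.6 to 36.2 FPKM; -0.86, adjusted p = 1.38e-05, limma). By fold, CBX5 (-1.10) and SUV39H2 (-0.96), a heterochromatin protein and a histone methyltransferase, also lay below CBX1. TRIM28 read means of 303 and 261 FPKM (-0.21, adjusted p = 0.267, limma), and SETDB1 10.99 and 10.5 FPKM (-0.08, adjusted p = 0.708, limma).

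The responses in KARPAS-422 and Pfeiffer were then compared directly. The comparisons share no library, and compound and line cannot be told apart in the difference. Of 216 members, 101 fell more (or rose less) with CPI-169 in KARPAS-422 than with GSK343 in Pfeiffer, against 18.8% of all genes tested, and 13 the other way, against 23.8% of all (42.6% in either direction). The median difference was -0.41 for the members and 0.07 for all genes. With libraries scaled to a common median these became -0.52 and -0.04. Members lower in both numbered 41, of which 18 lay in the ZNF101 to ZNF254 cluster. Of the lower members in Pfeiffer, 87.2% were also lower in KARPAS-422, against 72.2% of all 216. Of the lower members in KARPAS-422, 26.3% were also lower in Pfeiffer, against 21.8% of all 216. Whether these shares exceed those of unrelated calls was not tested. ZNF554 and ZNF579 were higher in both. ZNF177 was the only member called in opposite directions, and only at 1 of its entries: ENSG00000270011 fell from a mean of 2.82 to 0.752 FPKM in KARPAS-422 and rose from 0.342 to 1.01 FPKM in Pfeiffer, while the overlapping entry ENSG00000188629 fell in both. Across the 216 members the fold changes correlated at r = 0.41 and across the 29 of the ZNF101 to ZNF254 cluster at r = 0.37. Both are given as a description, since relatives may share reads.

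The 5 members named for the difference had the smallest adjusted p for the difference itself, all in that cluster. The difference was -1.50 for ZNF714 (adjusted p = 6e-06), -1.64 for ZNF93 (adjusted p = 7.75e-06), -1.85 for ZNF253 (adjusted p = 9.77e-06), -1.29 for ZNF506 (adjusted p = 1.06e-05) and -1.38 for ZNF430 (adjusted p = 1.19e-05, all limma). ZNF430 shows the contrast: it read 6.71 and 5.88 FPKM in Pfeiffer with DMSO and 5.69 and 5.83 FPKM with GSK343, a change of -0.11 that did not pass (adjusted p = 0.388, limma). ZNF506 read 9.69 and 10.0 FPKM and then 8.78 and 8.98 FPKM (-0.14, adjusted p = 0.226, limma), while in KARPAS-422 it went from 20.3, 20.2 and 20.8 FPKM to 6.59, 6.99 and 7.36 FPKM (-1.43). The starting levels of these genes also differed between the lines, as the FPKM values show, and the part of the starting level in the difference was not tested.

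**Figure D4:**
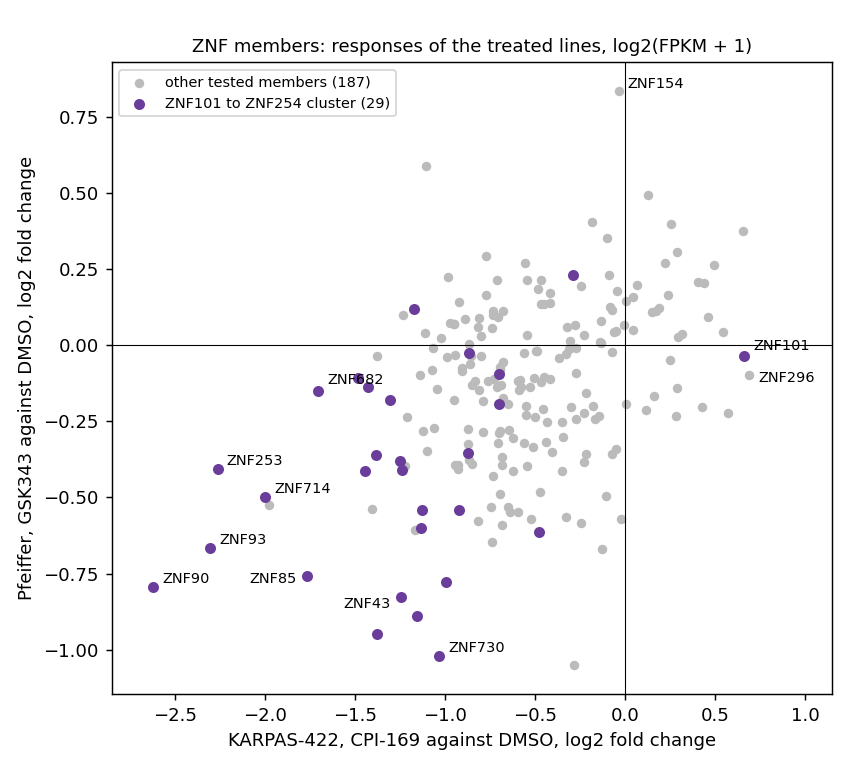
Log2 fold change with CPI-169 in KARPAS-422 (horizontal) against that with GSK343 in Pfeiffer (vertical), on the log2(FPKM + 1) scale, 1 point per tested member, the 29 of the ZNF101 to ZNF254 cluster in purple. Most points lie left of 0, and the purple points reach furthest left, to -2.62 for ZNF90.

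Without a compound, the lines held the members at different levels. The order of the medians was KARPAS-422 (7.95–8.39 FPKM), Pfeiffer (4.24–4.33 FPKM) and RL (2.45–2.56 FPKM), with no overlap between libraries of neighbouring lines; membership was decided in KARPAS-422, so its place is not a result. Over all 266 genes, which that rule did not choose, 213 had a mean of at least 1 FPKM in KARPAS-422, 217 in Pfeiffer and 180 in RL, and 33, 20 and 54 were under 0.1 FPKM. In the KARPAS-422 DMSO libraries the mean was above that of Pfeiffer DMSO for 183 of the 218 members, and with CPI-169 for 131. In the ZNF101 to ZNF254 cluster the count went from 24 of 29 to 7 of 29. In the ZNF175 to ZNF331 cluster, set against RL, it was 36 of 36 with and without CPI-169.

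RL and Pfeiffer, neither of which entered the rule, were compared by test. Of 216 members 120 were lower in RL, against 38.7% of all genes tested, and 28 higher, against 35.6% of all (74.3% in either direction). The median log2 difference was -0.35 for the members and -0.03 for all genes tested. With quantile normalization 86 members were lower and 50 higher, at medians of -0.15 for the members and 0.13 for all genes. Of all 18731 genes, 6224 were lower and 7838 higher with that normalization. Both RL libraries lay below both Pfeiffer libraries for 139 of 218 (46.8% of all genes tested) and above for 44 (44.2% of all). The 219 ZNF genes of other chromosomes went the other way in their counts, with 52 lower and 94 higher in RL and a median of 0.21. The ZNF175 to ZNF331 cluster had 34 of 36 members lower in RL and none higher, 18 of them by at least 2-fold, at a median of -1.0. Its median member was at 4.38 and 4.39 FPKM in Pfeiffer and 1.59 and 1.65 FPKM in RL. Its lower members stood in unbroken runs of 9, 12 and 13 genes. Of 24 other genes tested inside the bounds of that cluster, 13 were lower and 3 higher in RL, at a median of -0.50. Inside the 7 large clusters together, 92 of 208 other genes were lower in RL and 40 higher, at a median of -0.25. In the ZNF628 to ZNF446 cluster 33 of 53 were lower and 4 higher. The ZNF101 to ZNF254 cluster, by contrast, had 8 lower and 8 higher at a median of 0.01, with 7.66–7.90 FPKM in Pfeiffer and 8.58–9.29 FPKM in RL.

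Some members were close to silent in RL. ZNF320 read 0.107 and 0.0935 FPKM in RL and 11.3 and 12.7 FPKM in Pfeiffer (-3.56, adjusted p = 4.56e-10, limma). ZNF558, on the short arm, read 0.0165 and 0.00711 FPKM against 10.2 and 9.74 FPKM (-3.44, adjusted p = 1.71e-10, limma). ZNF528 read 0.145 and 0 FPKM against 10.6 and 8.57 FPKM (-3.30, adjusted p = 4.48e-08, limma). All 3 were thus clearly expressed in both Pfeiffer libraries and close to 0 in both RL libraries. ZNF542 read 0.0392 and 0.133 FPKM against 7.19 and 7.04 FPKM (-2.90, adjusted p = 5.62e-09, limma). ZNF331, an imprinted gene at the end of its cluster, was listed at 0 in both RL libraries and at 9.01 and 8.01 FPKM in Pfeiffer. The members ZNF415, ZNF347, ZNF818P and ZNF71, were listed at 0 in both RL libraries; a listed 0 can be a failed estimate, so no fold is given. In the DMSO means 13 members were under 0.1 FPKM in RL alone, 2 in both Pfeiffer and RL, and 203 in no line.

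Of the 28 members higher in RL than in Pfeiffer, 15 were lower with CPI-169 in KARPAS-422, 4 were higher (ZNF414, ZNF576, ZNF579 and ZNF837) and 9 did not pass there. ZNF414 read 13.8 and 13.03 FPKM in RL and 3.81 and 5.72 FPKM in Pfeiffer (1.34, adjusted p = 1.12e-05, limma), and ZNF576 16.1 and 14.7 FPKM against 6.56 and 6.48 FPKM (1.12). ZNF726, in the centromeric cluster, read 12.2 and 13.1 FPKM against 5.12 and 5.08 FPKM (1.16, adjusted p = 4.14e-06, limma). ZNF90 read 13.4 and 14.7 FPKM against 6.52 and 5.63 FPKM (1.09, adjusted p = 9.57e-06, limma), and ZNF333 4.69 and 4.33 FPKM against 1.61 and 1.57 FPKM (1.09). In each of these 5 both RL libraries were above both Pfeiffer libraries. With CPI-169 in KARPAS-422, ZNF90 and ZNF726 had fallen, by -2.62 and -0.92, and ZNF414 and ZNF576 had risen, while ZNF333 changed by 0.22 (adjusted p = 0.0922, limma).

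**Figure D5:**
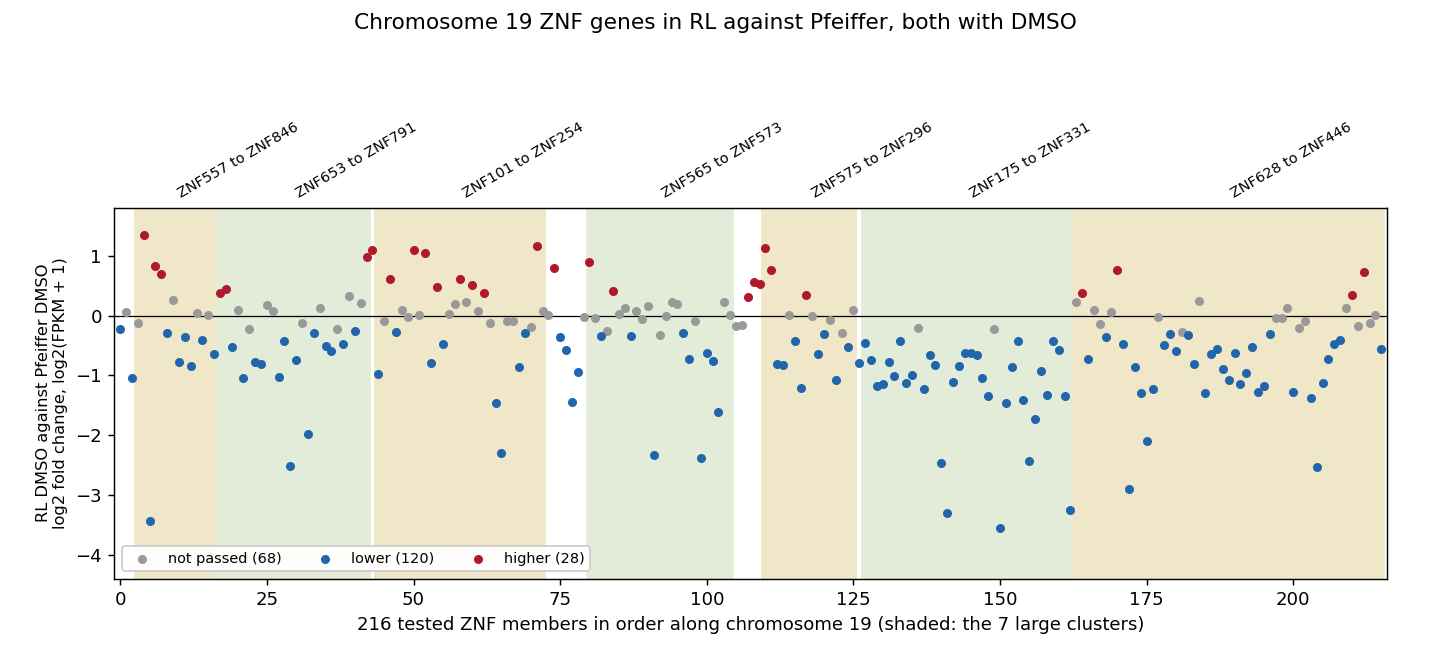
Log2 difference of each tested member between RL and Pfeiffer, both with DMSO, on the log2(FPKM + 1) scale, in gene order along chromosome 19, with colours for the call and shading for the 7 large clusters. The ZNF175 to ZNF331 cluster lies below 0 with 34 of 36 members called lower, and the lowest points are ZNF320, ZNF558 and ZNF528.

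The promoter letters shown at the start can be set beside the responses, as a description with no test. Of 44 tested members whose windows hold TCCAATCAG, 39 were lower and 1 higher with CPI-169, at a median of -0.91. Of 145 whose windows lack it, 96 were lower and 15 higher, at a median of -0.53. With GSK343 the counts were 20 lower and 0 higher of 44 (median -0.29), and 19 lower and 6 higher of 145 (median -0.08). The motif and the cluster cannot be told apart in the ZNF101 to ZNF254 cluster, where nearly every window holds it. In the ZNF653 to ZNF791 cluster, where both kinds occur, 17 of 18 members with it were lower (median -0.70) and 4 of 5 without it (median -0.97). Among the ZNF genes of other chromosomes 11 of 13 with the motif were lower with CPI-169 (median -0.67) and 65 of 165 without it (median -0.11). Among genes tested other than chromosome 19 ZNF genes, 31 of 76 with the motif were lower and 24 higher (median -0.09). The 13 ZNF genes just given are among those 76, and their 11 lower ones are among the 31. Without the motif 2928 of 9131 were lower and 2663 higher (median 0.00). These pooled counts thus do not describe non-ZNF genes alone. ZNF101, the gene of its cluster that rose, also carries TCCAATCAG. So do ZNF555 and ZNF57, which lie outside the large clusters, and ZNF66 and ZNF491, none of which passed with either compound. In the ZNF565 to ZNF573 and ZNF175 to ZNF331 clusters no window holds TCCAATCAG. There 20 of 23 and 25 of 28 members with a window were lower with CPI-169. For ACTTCCGG, 29 of 42 members with it were lower with CPI-169 (median -0.58) and 106 of 147 without it (median -0.62). For ACTACATTT the counts were 11 of 18 (median -0.515) and 124 of 171 (median -0.62).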

How the data were processed

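RNA of 12 libraries in 5 groups was measured by sequencing: KARPAS-422 with DMSO (3) or CPI-169 (3), Pfeiffer with DMSO (2) or GSK343 (2) and RL with DMSO (2). Groups and replicate numbers come from the sample titles. Per the labels' protocols, pellets were lysed in Trizol or buffer RLT, without saying which for each library. The authors deposited 1 table of FPKM values for all libraries, made with TopHat 1.4.1 and Cufflinks on hg19 (per the submitters' processing notes). Not given in the sources used here are the gene annotation, the strand setting and which Cufflinks version ran. FPKM keeps no read counts, so the depth behind each value is unknown, and no interval or floor could be computed. Genes at 1 FPKM or more in at least 2 libraries and with no missing value (18731) were tested on log2(FPKM + 1), a pseudocount of 1, with limma 3.58.1 (R 4.3.3): 1 fit of the 5 groups with a trended prior and 7 residual degrees of freedom, contrasts for CPI-169, GSK343, their difference and RL against Pfeiffer, Benjamini-Hochberg adjustment over all genes tested, and a threshold of 0.05. The fit was tested on simulated data. Level summaries used Python 3.11.15 with pandas 2.3.3, and figures matplotlib 3.10.9. Promoter windows come from a RefSeq table on GRCh38.p14 and were never combined with hg19 positions.

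The members, gene lists, motifs and naming rule were chosen with earlier results of these data known. Named by rule were members past the threshold whose libraries did not overlap and whose higher group had a mean of at least 2 FPKM. From these, the 8 highest and 8 lowest fold changes were taken for CPI-169, up to 6 each for GSK343 and 5 each for RL against Pfeiffer, and for the test of unequal responses the 5 with the smallest adjusted p. The 5 members with the highest mean level, the 2 entries on either side of the membership minimum, TRIM28, SETDB1 and the 3 other corepressor genes with the smallest adjusted p per compound were added. Members picked as examples outside this rule are marked in the text, and others are named to complete a count or a stretch. Alternatives changed the pseudocount, the filter, the scaling, the libraries fitted, the replicate block, the membership minimum and the cluster gap. KARPAS-422 was not tested against the other lines, since its level chose the members.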

Additional observations from a re-analysis of the deposited data

Results flagged for a closer look

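The change with CPI-169 in KARPAS-422 differed from that with GSK343 in Pfeiffer, by limma's test of the difference itself, for the 5 members named for it. The differences on the log2(FPKM + 1) scale were -1.50 for ZNF714, -1.64 for ZNF93, -1.85 for ZNF253, -1.29 for ZNF506 and -1.38 for ZNF430, and all 5 lie in the ZNF101 to ZNF254 cluster. Compound and line cannot be told apart in these values. No group had more than 3 libraries, so no library was tested as an outlier.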

How the results depend on the processing

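Depth is unknown and the groups are small, so a member that did not pass is not shown to be unchanged. Both the paralogy of the members and the overlap of entries limit values of single genes. For CPI-169, 10 members were higher at a minimum of 5 FPKM. The members' median was -0.71 and -0.72 with pseudocounts of 0.25 and 0.1, -0.70 at a minimum of 5 FPKM, -0.66 with both median scaling and quantile normalization. For GSK343, 4 were higher with no filter, 3 at a minimum of 5 FPKM, 4 with quantile normalization and 0 with the line fitted alone, which also gave 0 lower; the median was -0.15 and -0.15 with the smaller pseudocounts, -0.075 with median scaling and -0.15 with quantile normalization. For the difference between responses, 7 were higher at a minimum of 5 FPKM; the median was -0.47 and -0.49 with the smaller pseudocounts, -0.49 at that minimum, -0.52 with median scaling (which moved the median of all genes from 0.07 to -0.04) and -0.44 with quantile normalization. For RL against Pfeiffer, quantile normalization gave 50 higher and 86 lower and moved the median of all genes from -0.03 to 0.13; the members' median was -0.42 and -0.44 with the smaller pseudocounts, -0.30 with median scaling and -0.15 with quantile normalization. Leaving out 1 library at a time gave, for CPI-169, 12 to 17 higher, 144 to 160 lower and medians from -0.63 to -0.57; for GSK343, 2 to 10 higher, 21 to 64 lower (21 without Pfeiffer DMSO replicate 1) and -0.13 to -0.10; for the difference, 7 to 16 higher (7 without Pfeiffer DMSO replicate 1), 86 to 116 lower and -0.41 to -0.39; and for RL, 21 to 30 higher, 101 to 125 lower and -0.39 to -0.33. Whether replicate numbers pair the samples could not be decided from so few libraries. Deviations of same-numbered libraries correlated at -0.15, -0.25 and 0.16 in KARPAS-422, and those of other numbers at -0.25 to 0.33. In Pfeiffer the values were 0.14 and -0.14, which mirror each other because each group has 2 libraries. With the replicate block, CPI-169 gave 13 higher and 148 lower, GSK343 4 and 27, and the difference 7 and 83; RL against Pfeiffer could not be fitted with it. A gap of 2 Mb joined the genes into 9 clusters and one of 0.5 Mb split them into 22. Minimum means of 1 and 0.25 FPKM gave 211 and 229 members. The 41 named results were chosen for their fold changes or small adjusted p, so that choice favours stable values. Leaving out a library outside a comparison can change its p-value but not its fold change, and such fits are counted too. Of 789 values of 41 named results under alternatives, 757 kept direction and side of the threshold, 32 kept direction but lost the call, all of them for GSK343, and none reversed.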
